A study of Mus musculus with 12 samples.

Results

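The gelsolin family was followed as 8 genes of the 39017 listed in the count table of 12 mouse lung tumors: *Avil*, *Vil1*, *Vill*, *Gsn*, *Scin*, *Capg*, *Svil* and *Flii*, found by their symbols. Proteins of this family are built from repeated gelsolin domains and act on actin filaments under the control of calcium and membrane phosphoinositides. Most of them sever filaments and cap their fast-growing end, and the villins carry in addition a headpiece with which they bind and bundle filaments in microvilli. Advillin, the product of *Avil*, is known from sensory neurons and tuft cells. The members were listed by their biochemistry, but with earlier results of these data known. *Avil*, the lead gene of the family, was selected on its measured counts in these same tumors, without a record of the contrast used. Its values are therefore given throughout as a description, with no test.

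RNA came from the CD45-negative fraction of the tumors, which is what is left after immune cells are removed with magnetic beads, and each group held 3 tumors. All mice were on a C57BL/6 background and carried *K-ras* LSL-G12D/WT, *p53* Fl/Fl and CCSP-rtTA, and all received 6000 viral units of one lentivirus that delivers Cre from a PGK promoter. The same vector carries, behind a doxycycline-responsive TRE element, the transgene PPARαΔ13, which acts as a dominant negative on the nuclear receptor PPARα. KP tumors were labelled wild-type at *Slc2a1*, the gene of the glucose transporter Glut1, although the study's methods also allow heterozygous controls, and KPG1 tumors came from mice with Glut1 Fl/Fl. The groups labelled KP_PPARaDN and KPG1_PPARaDN, written KP-PPARαΔ13 and KPG1-PPARαΔ13 here, were fed doxycycline at 625 mg/kg for 15 days, and the KP and KPG1 groups a regular diet, so the diet and the induction of the transgene cannot be told apart. Tumors were taken 26 weeks after initiation. The age of the mice was not given in the sources used here. The rtTA that induces the transgene is driven by the promoter of a club cell gene, so induction is limited to cells in which that promoter is active.

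By the number in the labels that appears to name the mouse, the 12 tumors came from 9 mice, with 2 mice behind the KP, the KPG1 and the KPG1-PPARαΔ13 tumors and 3 behind the KP-PPARαΔ13 tumors. P-values therefore partly measure the spread between tumors of the same mouse. The KP tumors were all from females and the KPG1 tumors all from males. Total counts lay between 25263794 and 32654223 per tumor. *Ppara*, whose counts can include the transgene, was not higher in every tumor on doxycycline. KP-PPARαΔ13 replicates 1 to 3 had 2.71, 64.6 and 246.1 CPM (read counts scaled to library size with TMM factors), where KP tumors had 9.54 to 15.7 CPM. KPG1-PPARαΔ13 tumors had 8.90 to 19.2 CPM, where KPG1 tumors had 7.24 to 15.3 CPM. *Slc2a1* was no lower in the KPG1 tumors (30.2 to 63.95 CPM) than in the KP tumors (35.3 to 57.7 CPM), while on doxycycline it was lower in KPG1-PPARαΔ13 (23.7 to 54.55 CPM) than in KP-PPARαΔ13 (108 to 152.5 CPM) without overlap. The paper reports that bile acid, fatty acid and peroxisome pathways were repressed in tumors with the construct in both genotypes. Groups are named by their labels. Epithelial markers such as *Sftpc* (5540 to 29952 CPM) and *Krt8* (512 to 1595 CPM) were high in every tumor. KP replicate 2 stood most apart, with a mean correlation with the other tumors of 0.912 across genes, where the other tumors had 0.927 to 0.953.

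*Avil* (ENSMUSG00000025432) lies on chromosome 10 of mm10 from 127000709 to 127020994 on the plus strand. Since the induced protein interferes with a DNA-binding receptor, the 250 bases before the start of *Avil* are shown with those of *Vil1*, a relative that gives the villins their name, as RefSeq gives them for GRCm38.p6. RefSeq promoters matched 7 of the 8 members. Capitals mark a CCAAT box on the opposite strand, 45 bases before the start of *Avil*, and a GC box (GGGCGG), 187 bases before the start of *Vil1*.
Avil, chr10:127000459-127000708, plus strand: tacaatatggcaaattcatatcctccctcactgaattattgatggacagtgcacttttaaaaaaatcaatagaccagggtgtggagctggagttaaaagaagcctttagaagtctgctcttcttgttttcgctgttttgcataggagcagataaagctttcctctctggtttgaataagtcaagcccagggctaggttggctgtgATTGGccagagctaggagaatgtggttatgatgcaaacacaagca
Vil1, chr1:74409134-74409383, plus strand: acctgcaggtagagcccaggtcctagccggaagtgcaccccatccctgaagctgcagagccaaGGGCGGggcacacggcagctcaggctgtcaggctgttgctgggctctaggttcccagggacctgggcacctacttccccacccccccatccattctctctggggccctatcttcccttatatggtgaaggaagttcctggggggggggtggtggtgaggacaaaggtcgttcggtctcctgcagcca
The *Avil* stretch had 42% G and C and the *Vil1* stretch 62.8%. The response element of PPAR receptors, AGGTCANAGGTCA, was searched on both strands as exact letters only. It was in neither stretch, and it was in 0.0335% of 32851 promoters of the same length. With exact matches so rare, its absence says little, and sites that differ from it by some letters were not searched. Its single repeat AGGTCA was also in neither, against 14.0% of all promoters. A CCAAT box stood in 33.9% of all promoters and a GC box in 32.7%, while the TATA box TATAAA, in 12.4%, was in neither. These matches describe letters only.

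*Avil* had the lowest levels in tumors of mice on a regular diet and the highest in KP-PPARαΔ13 tumors. In KP replicates 1 to 3 it had 2.53, 2.24 and 4.07 CPM (2.95 ± 0.983, mean ± SD, n = 3), from counts of 74, 74 and 117 reads. In KP-PPARαΔ13 replicates 1 to 3 it had 21.3, 24.98 and 15.9 CPM (20.7 ± 4.54, SD, n = 3), from 621, 774 and 476 reads. The lowest of these 3 tumors was well above the highest KP tumor. Replicate 1, with the least *Ppara* of the 3, had the middle *Avil* value, and the relation of *Avil* to the transgene was not tested. Fitted across the 12 tumors, the log2 fold change between these groups was 2.81 (standard error 0.419), a 7.03-fold difference, and it was 2.79 without KP-PPARαΔ13 replicate 1 and 2.65 without KP replicate 2. In bulk RNA, more cells of a type and more RNA per cell cannot be told apart.

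In KPG1 replicates 1 to 3 *Avil* had 3.92, 1.82 and 2.45 CPM (2.73 ± 1.08, SD, n = 3), and in KPG1-PPARαΔ13 replicates 1 to 3 it had 9.48, 4.45 and 6.31 CPM (6.75 ± 2.55, SD, n = 3). These groups did not overlap either, though the gap was narrow, and the log2 fold change was 1.31 (standard error 0.401), a 2.47-fold difference. Such separations were common: of the 16527 genes tested, 6.55% were higher without overlap in KP-PPARαΔ13 than in KP, and 11.2% in KPG1-PPARαΔ13 than in KPG1. Over both genotypes, all 6 tumors on doxycycline had more *Avil* than all 6 on the regular diet, a separation shared by 0.266% of genes, with 4.45 CPM as the lowest doxycycline value and 4.07 CPM as the highest other one. The mean log2 fold change over both genotypes was 2.06 (standard error 0.289).

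The order of the group means was thus KP-PPARαΔ13, KPG1-PPARαΔ13, KP and KPG1. KP and KPG1 overlapped, with a log2 difference of -0.11 (standard error 0.398), whereas KPG1-PPARαΔ13 lay below KP-PPARαΔ13 without overlap, as 7.25% of genes did, by a log2 difference of -1.62 (standard error 0.4005). The log2 fold change with the diet differed between the genotypes by -1.51 for KPG1 minus KP (standard error 0.561). The contrasts within each genotype use the same groups as these last values, so they are not separate evidence. Within each sex the diets also differed in genotype. In females *Avil* had 2.24 to 4.07 CPM on the regular diet (all KP) and 6.31 to 24.98 CPM on doxycycline (both genotypes). In males it had 1.82 to 3.92 CPM (all KPG1) and 4.45 to 21.3 CPM (both genotypes). With sex and genotype both alike, only 1 female KP-PPARαΔ13 tumor (24.98 CPM) and 1 male KPG1-PPARαΔ13 tumor (4.45 CPM) remained on doxycycline. With sex as a covariate the log2 fold change was 3.22 in KP and 0.84 in KPG1.

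**Figure D1:**
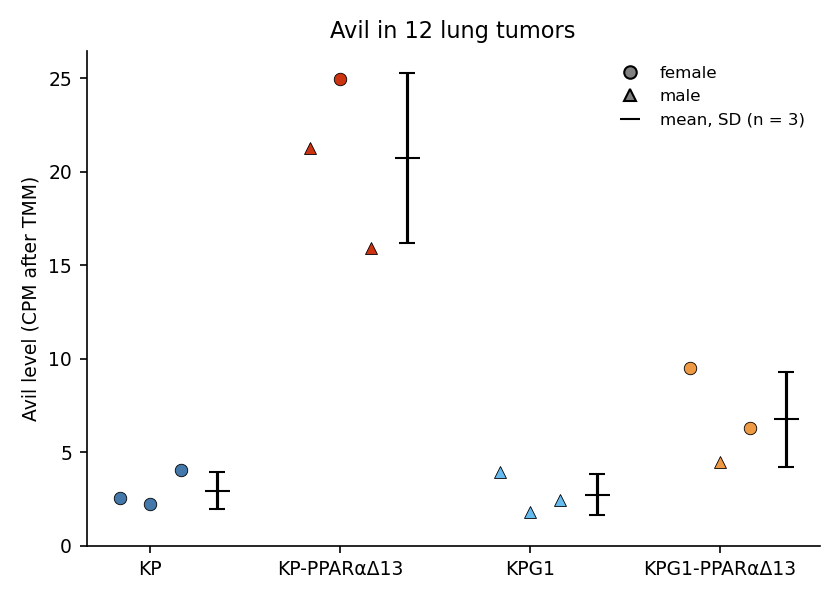
*Avil* in CPM (y axis) in each of 12 tumors by group (x axis), with circles for females, triangles for males, and the mean ± SD of 3 tumors to the right of each group. The KP-PPARαΔ13 tumors sit at 15.9 to 24.98 CPM, above every other tumor, and the KPG1-PPARαΔ13 tumors at 4.45 to 9.48 CPM, just above the 6 tumors on the regular diet.

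Per kilobase of exon, on which scale genes can be compared, *Avil* was a minor member of the family. The mean over the 12 tumors was 78.0 CPM per kilobase for *Gsn*, 42.3 for *Vill*, 36.0 for *Flii*, 34.4 for *Vil1*, 33.3 for *Svil*, 18.5 for *Capg*, 2.44 for *Avil* and 0.234 for *Scin*. The ranges over tumors of *Vill*, *Flii*, *Vil1* and *Svil* overlapped, and *Gsn* ranked between 1 and 4 in single tumors, so the upper order is not fixed. *Avil* was rank 7 and *Scin* rank 8 in every tumor. *Avil* made up 0.245 to 0.539% of the summed level of the 8 genes per kilobase in KP tumors, 0.198 to 0.612% in KPG1, 0.650 to 0.935% in KPG1-PPARαΔ13 and 1.42 to 3.02% in KP-PPARαΔ13. Its share was highest in the KP-PPARαΔ13 tumors without overlap with another group. *Svil* was rank 1 when levels were not divided by length, and rank 3 with the longest transcript as the length.

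**Figure D2:**
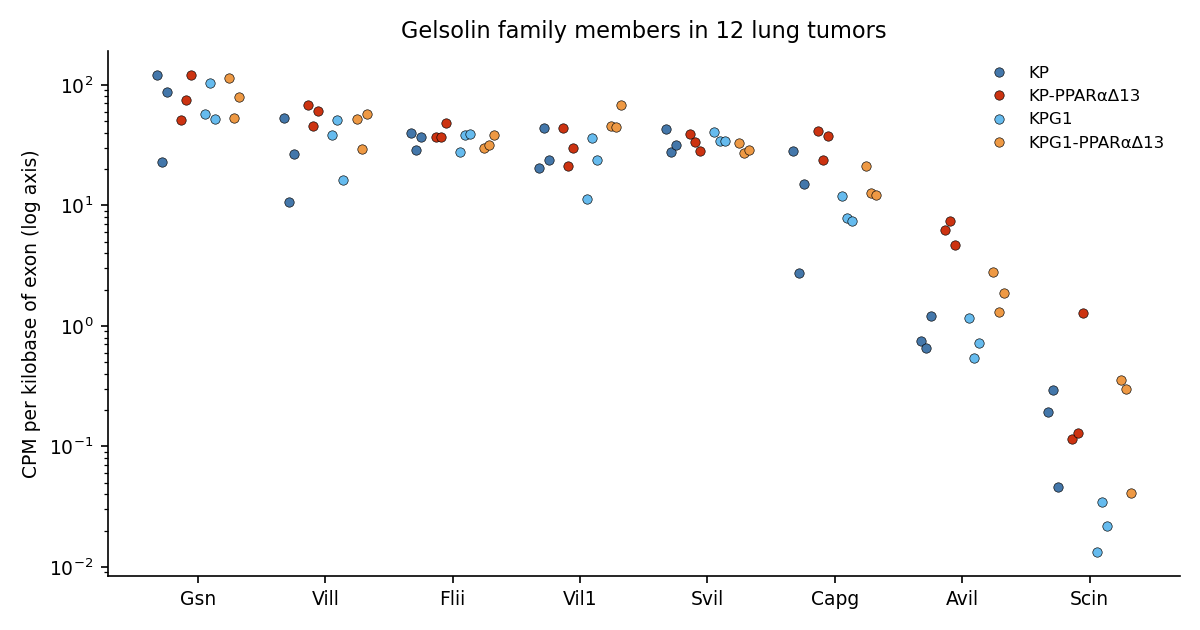
Level of the 8 genes in CPM per kilobase of exon (y axis, log scale) in each tumor, 1 point per tumor, coloured by group and ordered by the mean over 12 tumors (x axis). *Avil*, at a mean of 2.44, lies between *Capg* (18.5) and *Scin* (0.234).

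None of the other 7 members passed an adjusted p of 0.05 (edgeR's quasi-likelihood test, Benjamini-Hochberg over all 16527 genes) in any of 7 comparisons, nor did any with DESeq2 or limma voom. Few genes of any kind passed: 0.00605% of those tested between KP-PPARαΔ13 and KP, 0.00605% between KPG1-PPARαΔ13 and KPG1, 0.0363% between KPG1 and KP, 0.0303% between KPG1-PPARαΔ13 and KP-PPARαΔ13, 0.0182% with doxycycline over both genotypes, 0.0484% with floxed *Slc2a1* over both diets, and 0% for the difference of the diet effect between genotypes. At an unadjusted p under 0.05, 2 of the 7 were higher in KPG1-PPARαΔ13 than in KPG1 (*Vil1* and *Scin*), where 6.25% of all genes were, and 2 were higher with doxycycline over both genotypes (*Scin* and *Capg*), where 5.14% were. *Scin* was lower in KPG1 than in KP, as were 3.81% of genes, and *Scin* and *Capg* were lower with floxed *Slc2a1*, as were 2.37%. In the other 3 comparisons 0 of the 7 passed the unadjusted p, which 11.4% of genes did between KP-PPARαΔ13 and KP, 9.69% between KPG1-PPARαΔ13 and KP-PPARαΔ13, and 11.8% for the difference between genotypes. All 8 members passed the filter on low counts, *Scin* through tumors of groups other than KPG1, where it had 1 to 3 reads. *Scin* was thus kept through groups in which it was higher, so counts that include it do not support a change of the family. With doxycycline over both genotypes 6 of the 7 had fold changes above 0, and their median log2 fold change was 0.63, where that of all genes was 0.008. The medians were 0.20 in KP and 0.39 in KPG1, where those of all genes were -0.008 and 0.023. Among the 6 above 0 with doxycycline over both genotypes are *Scin* and also *Gsn* (0.16) and *Flii* (0.06). The signs of these last 2 changed when some single tumors were left out, so the count does not show a rise of the whole family.

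*Vil1* (ENSMUSG00000026175; mm10 chromosome 1, 74409376 to 74435559, plus strand) encodes villin, which bundles the actin core of intestinal microvilli. It had 71.8, 156 and 85.2 CPM in KP replicates 1 to 3 and 154, 75.7 and 106 CPM in KP-PPARαΔ13 replicates 1 to 3. These ranges coincided, with a log2 fold change of 0.10 (standard error 0.426, edgeR adjusted p = 0.961). In KPG1 replicates 1 to 3 it had 40.0, 129 and 83.7 CPM, and in KPG1-PPARαΔ13 replicates 163, 159 and 241 CPM. The KPG1-PPARαΔ13 tumors were the 3 highest of the 12, and 10.3% of genes were likewise higher in them than in KP-PPARαΔ13 without overlap. Against KPG1, where the share was 11.2%, *Vil1* had a log2 fold change of 1.16 (standard error 0.431, unadjusted p = 0.0209, edgeR adjusted p = 0.42), which did not pass. Against KP-PPARαΔ13 the log2 fold change was 0.74 (standard error 0.428, edgeR adjusted p = 0.579). *Vil1* and *Avil* were thus highest in different groups on doxycycline, *Avil* in KP-PPARαΔ13 and *Vil1* in KPG1-PPARαΔ13.

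*Vill* (ENSMUSG00000038775; mm10 chromosome 9, 119052778 to 119071525, plus strand) encodes the villin-like protein, whose role is less well known. Its level varied 6.44-fold over the tumors. It had 235, 46.5 and 117 CPM in KP replicates 1 to 3 and 299, 201 and 265 CPM in KP-PPARαΔ13 replicates 1 to 3. KP replicate 1 lay among the KP-PPARαΔ13 tumors. The log2 fold change was 0.94 (standard error 0.533, edgeR adjusted p = 0.54), or 1.65 without KP replicate 1 and 0.54 without KP replicate 2. It had 169, 223 and 71.9 CPM in KPG1 replicates and 229, 128.5 and 251 CPM in KPG1-PPARαΔ13 replicates, which overlap, with a log2 fold change of 0.39 (standard error 0.529, edgeR adjusted p = 0.812), which ran from 0.013 without KPG1 replicate 3 to 0.72 without KPG1 replicate 2.

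*Gsn* (ENSMUSG00000026879; mm10 chromosome 2, 35256380 to 35307892, plus strand) encodes gelsolin, the widely expressed severing protein that gives the family its name. In KP replicates 1 to 3 it had 377, 71.85 and 274 CPM, and in KP-PPARαΔ13 162, 236 and 383 CPM. In KPG1 it had 182, 327 and 163 CPM, and in KPG1-PPARαΔ13 359, 167 and 252 CPM. Each group spanned most of the range of the others. With doxycycline over both genotypes the log2 fold change was 0.16 (standard error 0.379, 95% interval -0.67 to 0.99, edgeR adjusted p = 0.922), and it was -0.057 without KP replicate 2, its lowest tumor and the one that stood most apart.

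*Scin* (ENSMUSG00000002565; mm10 chromosome 12, 40059769 to 40134228, minus strand) encodes adseverin, also called scinderin, a severing protein of secretory cells. Its counts were 17, 29 and 4 reads in KP replicates 1 to 3, 10, 12 and 114 in KP-PPARαΔ13, 1, 3 and 2 in KPG1, and 31, 28 and 4 in KPG1-PPARαΔ13. The highest level, 3.82 CPM in KP-PPARαΔ13 replicate 3, was 95.5 times the lowest, 0.04 CPM in KPG1 replicate 1. At this depth single reads moved the low values. The highest KPG1 count, 3 reads, lay next to 4 reads in KP replicate 3 and in KPG1-PPARαΔ13 replicate 3. The log2 fold change with doxycycline over both genotypes was 2.36 (standard error 0.789, unadjusted p = 0.0119, edgeR adjusted p = 0.367), and it was 1.33 without KP-PPARαΔ13 replicate 3. KPG1 lay below KPG1-PPARαΔ13 and below KP without overlap, the latter shared by 5.13% of genes, with log2 fold changes of 3.22 for the diet (standard error 1.20, 95% interval 0.58 to 5.86, edgeR adjusted p = 0.42) and -2.85 for KPG1 against KP (standard error 1.20, edgeR adjusted p = 0.787).

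*Capg* (ENSMUSG00000056737; mm10 chromosome 6, 72544391 to 72562983, plus strand) encodes a member that caps filament ends without severing them. It was the member most like *Avil* over the 12 tumors (Pearson r = 0.733, Spearman rho = 0.769, on log2 CPM). After each gene was centred on its group means, its r was 0.359, below that of *Svil* (0.467). *Capg* had 71.35, 6.97 and 38.3 CPM in KP replicates 1 to 3, and 104, 60.5 and 94.2 CPM in KP-PPARαΔ13 replicates 1 to 3. KP replicate 1 overlapped the KP-PPARαΔ13 group. The log2 fold change was 1.15 (standard error 0.600, edgeR adjusted p = 0.504), or 0.65 without KP replicate 2 and 1.93 without KP replicate 1. In KPG1 it had 30.3, 19.7 and 18.8 CPM and in KPG1-PPARαΔ13 53.45, 32.3 and 30.8 CPM, which were just apart, with a log2 fold change of 0.76 (standard error 0.598, edgeR adjusted p = 0.674), or 0.46 without KPG1-PPARαΔ13 replicate 1. Over both genotypes *Capg* was higher with doxycycline (log2 fold change 0.95, standard error 0.423, unadjusted p = 0.0448, edgeR adjusted p = 0.486) and over both diets lower with floxed *Slc2a1* (log2 fold change -0.96, standard error 0.423, unadjusted p = 0.0445, edgeR adjusted p = 0.976), and neither passed.

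The large and distant members were the steadiest. *Svil* (ENSMUSG00000024236) encodes supervillin, a membrane-associated protein that binds actin and myosin II, and *Flii* (ENSMUSG00000002812; mm10 chromosome 11, 60714123 to 60727263, minus strand) encodes flightless I, which joins gelsolin domains to leucine-rich repeats. In KP replicates 1 to 3 *Svil* had 456, 293 and 339.9 CPM, and in KP-PPARαΔ13 415, 357.5 and 302 CPM. In KPG1 it had 433, 366.5 and 365 CPM, and in KPG1-PPARαΔ13 353, 291 and 307 CPM. Its highest tumor was 1.56 times its lowest. KPG1-PPARαΔ13 lay just below KPG1, as did 9.41% of genes without overlap (log2 fold change -0.29, standard error 0.207, edgeR adjusted p = 0.646), and over both genotypes the log2 fold change was -0.16 (standard error 0.147, edgeR adjusted p = 0.779). *Flii* had 139.7 to 241 CPM over the 12 tumors, a 1.72-fold range, and a log2 fold change with doxycycline of 0.06 (standard error 0.145, 95% interval -0.26 to 0.38, edgeR adjusted p = 0.924). For *Flii* a change of 2-fold with doxycycline lay outside the interval.

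**Figure D3:**
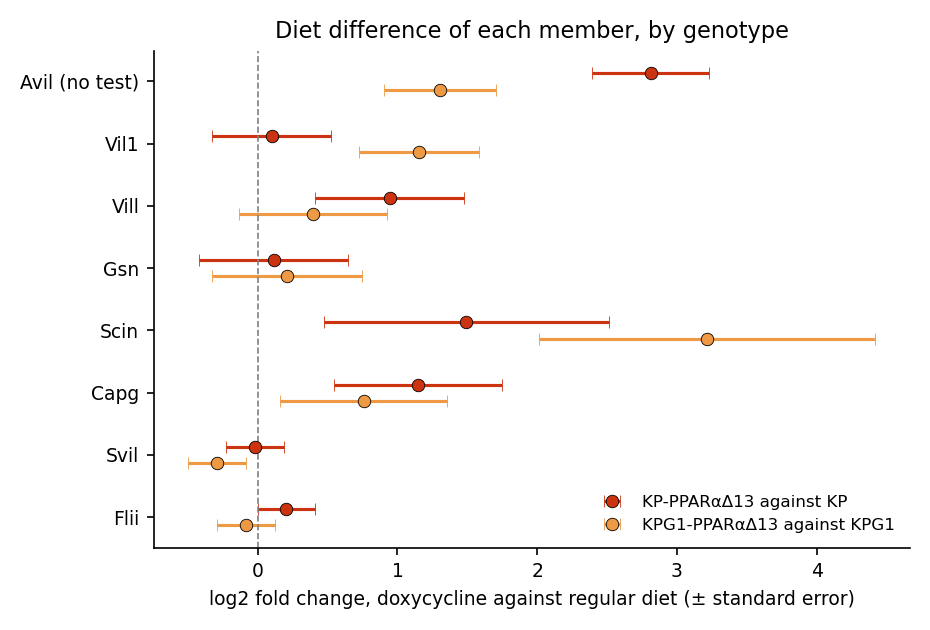
Log2 fold change of each of the 8 genes (y axis) between doxycycline and regular diet (x axis) in KP tumors (red) and KPG1 tumors (orange), with standard errors of the edgeR fit as bars. *Avil*, shown without a test, is at 2.81 in KP and 1.31 in KPG1, *Vil1* at 0.10 and 1.16, and *Svil* and *Flii* lie near 0.

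The members differed in how much they varied within groups. Within groups the SD of log2 CPM was 0.472 for *Avil*, near the median of 0.425 over all tested genes, while over all 12 tumors it was 1.30 for *Avil* against a median of 0.450. *Scin* (1.30), *Capg* (0.936), *Gsn* (0.805), *Vill* (0.784) and *Vil1* (0.602) had larger SDs within groups than *Avil*, and *Svil* (0.222) and *Flii* (0.235) smaller ones. In 3 pairs the tumors of a group appear to come from one mouse, and the pairs differed. Between KP replicates 1 and 2 *Capg* differed 10.2-fold, *Gsn* 5.25-fold, *Vill* 5.05-fold and *Avil* 1.13-fold. Between KPG1 replicates 1 and 2 *Avil* differed 2.15-fold, more than *Gsn* (1.80-fold), *Capg* (1.535-fold) and *Vill* (1.32-fold). Between KPG1-PPARαΔ13 replicates 1 and 3 *Capg* differed 1.74-fold, *Avil* 1.503-fold, *Gsn* 1.42-fold and *Vill* 1.097-fold.

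*Capg* was followed by *Vill* (r = 0.559, rho = 0.566) and *Scin* (r = 0.396, rho = 0.406) in likeness to *Avil*, while *Flii* (r = 0.238), *Gsn* (r = 0.208), *Vil1* (r = 0.118) and *Svil* (r = -0.043) were less alike. This order did not hold after centring on group means. The r was then 0.467 for *Svil*, 0.359 for *Capg*, 0.173 for *Vill*, 0.158 for *Gsn*, -0.398 for *Flii*, -0.465 for *Scin* and -0.565 for *Vil1*. Of 14108 genes with a mean of at least 1 CPM, 8 had an r with *Avil* of at least 0.9 over the 12 tumors, where the median gene had 0.001. These correlations are descriptions over 12 tumors that share groups, diets and mice. The highest were *Rab11fip5* (r = 0.959, rho = 0.951), an effector of Rab11 in vesicle recycling, *Tes* (r = 0.929, rho = 0.909), which encodes the focal adhesion protein testin, the uncharacterised *Gm12602* (r = 0.923, rho = 0.860), *Creb5* (r = 0.922, rho = 0.937), a transcription factor, and *Pgm1* (r = 0.922, rho = 0.909), listed by that symbol.

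*Rab11fip5* ran from 34.8 to 39.5 CPM in KP-PPARαΔ13, from 16.2 to 19 in KPG1-PPARαΔ13, from 8.03 to 17.75 in KP and from 5.96 to 14.2 in KPG1, the same order of its highest groups as *Avil*. After each gene was centred on its group means, the r of these 5 genes with *Avil* fell to 0.763, 0.723, 0.273, 0.779 and 0.778 in the order named, and others came first: *Acta2* (0.971), the actin of smooth muscle, *Gm6563* (0.961), *Dynll1* (0.947), a dynein light chain, *Jph1* (0.933), a junctophilin, and *Katna1* (0.927), a microtubule-severing protein. The likeness over 12 tumors thus came in part from the group means, least so for *Creb5* and *Pgm1*.

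**Figure D4:**
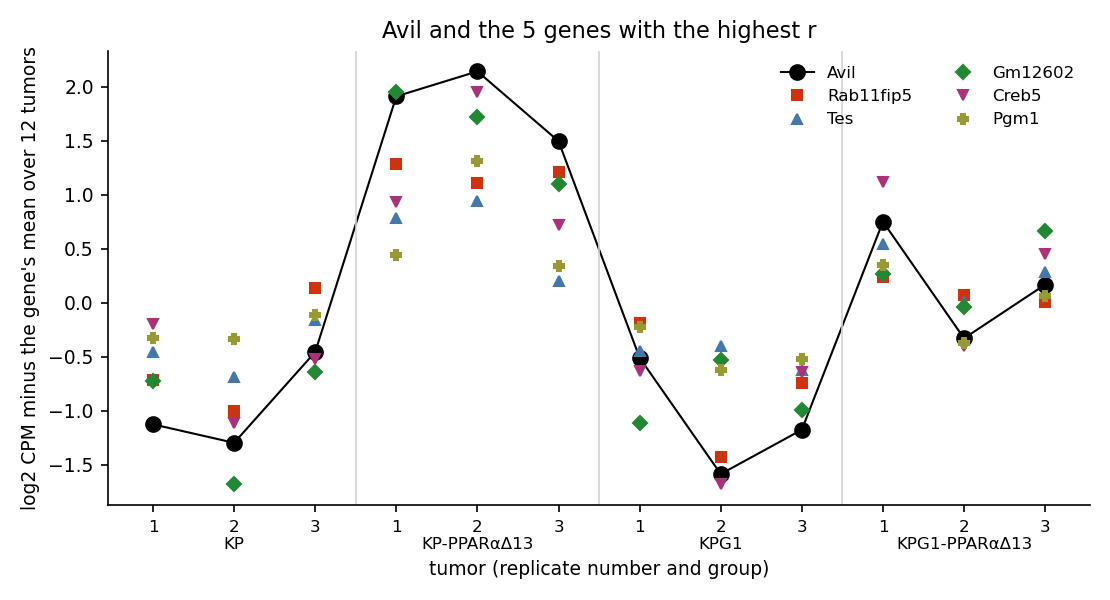
Log2 CPM minus the mean of each gene over 12 tumors (y axis) for *Avil* (black circles joined by a line) and the 5 genes with the highest r with it (coloured marks), in each tumor by group and replicate number (x axis). All 6 genes peak in KP-PPARαΔ13 tumors, where *Avil* has 15.9 to 24.98 CPM, and the line only joins tumors in order.

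Genes of the actin machinery outside the family gave no call with edgeR. Between KP-PPARαΔ13 and KP, 0 of 5 actins, 0 of 22 other severing and capping proteins, 0 of 6 actin monomer binding proteins, 0 of 9 Arp2/3 subunits and 0 of 16 bundling and nucleation proteins passed an adjusted p of 0.05 with edgeR, and at an unadjusted p under 0.05 there were 0, 5, 2, 3 and 2 higher and 1, 1, 1, 0 and 1 lower. That unadjusted p was passed by 11.4% of all genes between KP-PPARαΔ13 and KP. In these lists the median log2 fold changes were 0.16, 0.20, 0.47, 0.38 and 0.24, all above the -0.008 of all genes. Between KPG1-PPARαΔ13 and KPG1, again 0 passed in each list, with 0, 1, 1, 0 and 4 higher and 0, 1, 0, 0 and 0 lower at an unadjusted p under 0.05, which 10.8% of all genes passed. The medians there were 0.25, 0.03, 0.37, -0.10 and 0.23, against 0.023. Limma voom called 0 of these genes in either genotype, while DESeq2 called 1 severing and capping gene lower, 1 monomer binding gene higher and 1 bundling gene higher in KP, and 1 severing and capping gene higher, 1 lower and 1 bundling gene higher in KPG1. Among all genes DESeq2 called 372 in KP and 197 in KPG1, where edgeR called 1 in each. The genes with the highest CPM in these lists, not divided by length, include *Actb* (1257 to 2335 CPM over the 12 tumors), *Tmsb4x* (1027 to 2943 CPM), which holds actin monomers, *Dstn* (453 to 885 CPM) and *Cfl1* (189.6 to 616 CPM), which sever filaments, *Actr3* (267 to 461.5 CPM) of the Arp2/3 complex and *Actn4* (487 to 887 CPM), which crosslinks filaments. The 8 family members together summed to 723 to 1416 CPM per tumor in KP and 1143 to 1411 CPM in KP-PPARαΔ13.

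The brush border, where villin is known from, had 1 call among 18 tested genes: *Anpep*, an aminopeptidase of the cell surface, was lower in KP-PPARαΔ13 than in KP (edgeR adjusted p = 0.0146), the opposite direction to *Avil*, and it was also called by DESeq2, which called 1 other gene higher, and by limma voom. At an unadjusted p under 0.05, which 11.4% of all genes passed, the list had 3 higher and 3 lower, *Anpep* among the lower. The median log2 fold change of the list was 0.17. Between KPG1-PPARαΔ13 and KPG1 none passed with edgeR, while DESeq2 called 1 lower. There 1 was higher and 1 lower at an unadjusted p under 0.05, which 10.8% of all genes passed. Those with the highest CPM were *Ezr* (363 to 992 CPM), the membrane linker ezrin, *Dpp4* (202 to 571 CPM), *Baiap2l1* (82.5 to 145 CPM) and *Eps8* (5.55 to 259 CPM), a capping and bundling protein of microvilli. Gut and liver lineage transcription factors, of which *Hnf4a* (95.5 to 252 CPM) and *Foxa1* (42.2 to 153 CPM) were the highest, had 0 calls among 9 tested in either genotype, with 1 higher and 1 lower in KP and 1 higher and 0 lower in KPG1 at an unadjusted p under 0.05, and DESeq2 called 1 higher in KP.

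Cell types in which advillin is known were scarcely seen. Of 23 tuft cell markers, 13 stayed under 1 CPM in every tumor, among them the defining factor *Pou2f3* (at most 0.121 CPM) and the channel *Trpm5* (at most 0.360 CPM), and *Chat* had no read in any tumor, which allows up to 3 reads. The summed tuft cell list was carried by *Ptgs1* (151 to 581 CPM), which other cells also express, and ran from 198 to 480 CPM in KP, 288 to 649 in KP-PPARαΔ13, 479 to 531 in KPG1 and 178 to 467 in KPG1-PPARαΔ13. *Dclk1* had means of 13.6 CPM in KP, 18.5 in KP-PPARαΔ13, 36.2 in KPG1 and 7.67 in KPG1-PPARαΔ13. The median log2 fold change of the list was 0.049 in KP and 0.41 in KPG1, and 0 of the 12 tuft cell markers tested passed with edgeR in either genotype, with 2 lower in each at an unadjusted p under 0.05. Among all genes 11.4% passed that unadjusted p in KP and 10.8% in KPG1. Of 7 nerve and Schwann cell markers, *Sox10* had at most 0.0661 CPM, and the list summed to 4.49 to 9.85 CPM in KP, 5.49 to 9.08 in KP-PPARαΔ13, 5.44 to 8.16 in KPG1 and 8.29 to 9.93 in KPG1-PPARαΔ13. Of its 5 genes tested 0 passed, with 1 lower in KP and 1 higher in KPG1 at an unadjusted p under 0.05.

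Summed marker lists of some other cell types were, like *Avil*, higher in KP-PPARαΔ13 than in KP. Mesothelial markers summed to 165 to 459 CPM in KP and 739 to 989.7 in KP-PPARαΔ13, where they did not overlap, and to 209 to 554 in KPG1 and 386.5 to 526 in KPG1-PPARαΔ13, where they did. That sum came from *Krt19* (mean 286 CPM in KP and 614 in KP-PPARαΔ13) and *Msln* (27.3 and 231 CPM). The others were low: *Wt1* had at most 0.226 CPM, *Lrrn4* at most 0.936 CPM and *Upk3b* at most 2.39 CPM. The sum alone therefore does not show a change in mesothelial cells. Fibroblast markers summed to 115 to 243 CPM in KP and 268 to 530.5 in KP-PPARαΔ13, again apart, and to 85.6 to 356 and 129 to 186 in KPG1 and KPG1-PPARαΔ13. That sum came mainly from *Col1a1* (mean 45.9 CPM in KP and 104 in KP-PPARαΔ13), *Col1a2* (50.3 and 121 CPM) and *Col3a1* (56.6 and 126 CPM). *Dcn* had 4.79 to 123.5 CPM in KP-PPARαΔ13. Of the low markers, *Fbln1*, *Mfap4* and *Lum* had lower means in KP-PPARαΔ13 than in KP, while *Pdgfra*, *Dpt* and *Tcf21* had higher ones. This sum alone does not show a change in fibroblasts either. Red cell markers ran from 319 to 765 CPM in KP, 849.9 to 1320 in KP-PPARαΔ13, 629 to 962 in KPG1 and 731 to 1421 in KPG1-PPARαΔ13. The part of these cells in the level of *Avil* was not tested.

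None of the mesothelial, fibroblast, smooth muscle and pericyte, endothelial, leukocyte or lung epithelium markers passed an adjusted p of 0.05 with edgeR between KP-PPARαΔ13 and KP, where 2 of 4, 3 of 9, 0 of 9, 0 of 8, 0 of 11 and 0 of 9 were higher at an unadjusted p under 0.05 and 1 fibroblast marker was lower. In KPG1 none of them passed either, with 1 lung epithelium marker lower and no other at an unadjusted p under 0.05. That unadjusted p was passed by 11.4% of all genes in KP and 10.8% in KPG1. DESeq2 called 1 fibroblast marker higher in KP, among 372 genes called there, and 1 lung epithelium marker lower in KPG1, among 197. Between KPG1-PPARαΔ13 and KPG1 the red cell marker *Hba-a2*, a globin, was called higher (edgeR adjusted p = 0.0105) as 1 of 5, also with DESeq2 but not with limma voom, while in KP 4 of 5 were higher at an unadjusted p under 0.05 and 0 passed. *Hba-a2* had at most 0.529 CPM in KPG1, where KP had 13.1 to 26.2 CPM, and was called lower in KPG1 than in KP (edgeR adjusted p = 0.0248). From KPG1 to KPG1-PPARαΔ13 the mean of *Hbb-bt* went from 494 to 298 CPM, while *Hba-a1*, *Hbb-bs* and *Alas2* had higher means in KPG1-PPARαΔ13. Smooth muscle and pericyte markers summed to 67.9 to 203 CPM in KP, 127 to 152 in KP-PPARαΔ13, 76.35 to 175 in KPG1 and 91.3 to 378 in KPG1-PPARαΔ13, endothelial markers to 233 to 488.5, 153.5 to 843, 185 to 515 and 176 to 273, and leukocyte markers to 76.3 to 302, 143 to 251, 122 to 197 and 80.3 to 124.5 CPM in the same order. Lung epithelium markers summed to 19603 to 47114 CPM in KP and 24931 to 47384 in KP-PPARαΔ13, which overlap.

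**Figure D5:**
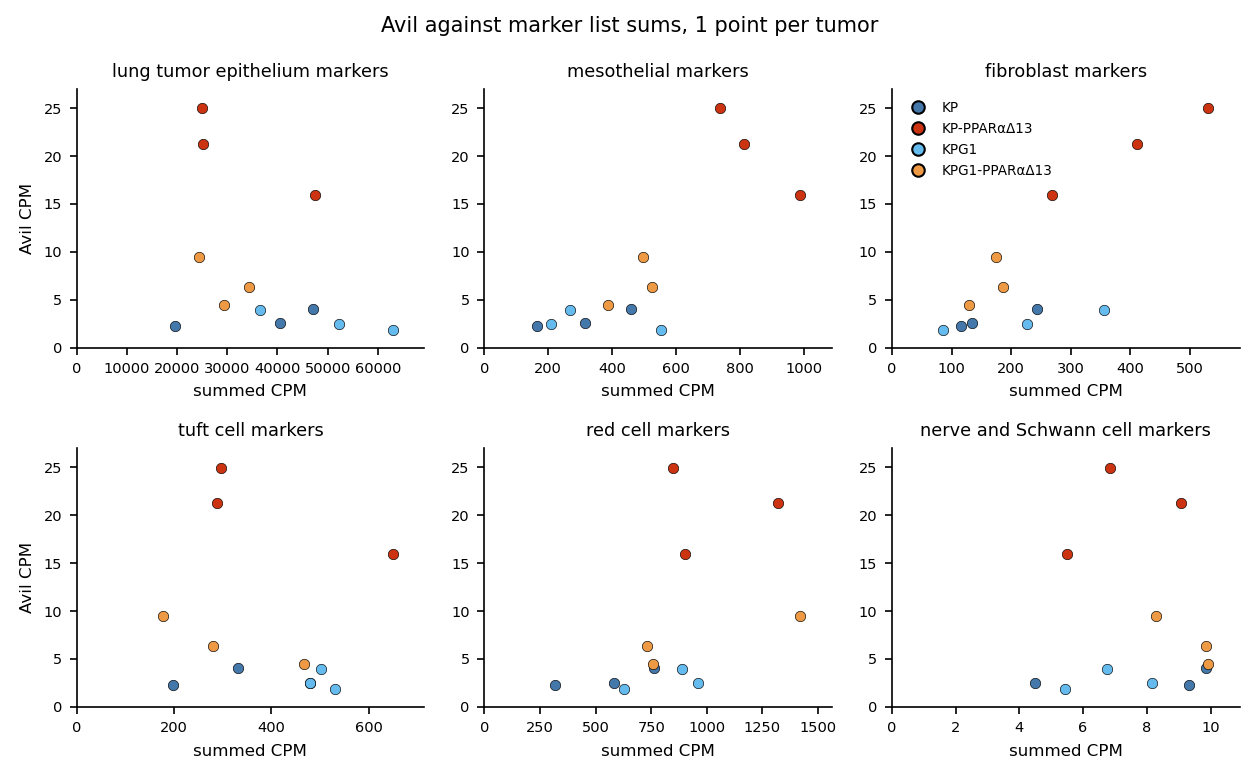
*Avil* in CPM (y axis) against the summed CPM of 6 marker lists (x axes, 1 panel each), 1 point per tumor, coloured by group. The KP-PPARαΔ13 tumors, at 15.9 to 24.98 CPM of *Avil*, have the highest sums of the mesothelial list (739 to 989.7 CPM), mainly from *Krt19* and *Msln*. They are not set apart in the lung epithelium, tuft cell or nerve and Schwann cell panels.

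Exons of *Avil* share 165 bases with *Tsfm* on the opposite strand, those of *Vil1* 49 with *Usp37* and those of *Flii* 64 with *Llgl1*, and the strand setting of the counting was not given in the sources used here. *Tsfm* had 12.3 to 17.2 CPM in KP, 10.6 to 16.3 in KP-PPARαΔ13, 10.9 to 15.3 in KPG1 and 14.3 to 21.3 in KPG1-PPARαΔ13. The part of *Tsfm* reads in the *Avil* counts was not tested.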

How the data were processed

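Lung tumors were sequenced as single-end mRNA libraries prepared with a stranded kit. After adapter trimming (Cutadapt) and alignment with HISAT2 against the mm10 genome, the authors counted reads per gene and deposited these raw counts for each tumor and in a combined table, and the files of the 12 tumors were equal to that table. The submitters' processing notes list bcl2fastq 2.17, cutadapt 1.4.2, featureCounts 1.4.4 and edgeR, and the annotation and strand setting of the counting are not given in the sources used here. The deposited log2 values were not used. Groups, sex and replicate numbers were taken from the labels. Columns that match no sample numbered 0.

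Counts of the 12 tumors were fitted together with edgeR 4.0.16 (TMM, filterByExpr, glmQLFit, glmQLFTest) under R 4.3.3, with a mean per group, 8 residual degrees of freedom, a biological coefficient of variation of 0.44 and Benjamini-Hochberg adjustment over the 16527 genes kept, at 0.05. The study's methods name limma voom after a filter at 20 TPM. Each was run as an alternative on its own, voom with the main filter and the 20 TPM filter with edgeR, but not the 2 together. *Avil* did not pass the filter at 20 TPM, so it has no value under that setting. The script was tested on simulated data. The standard error of a log2 fold change was taken as its size over the square root of the F statistic. Totals of 25263794 to 32654223 counts leave the spread between tumors as the main limit, except for *Scin*. Levels per kilobase use the union of exons in GENCODE M21, which held 96.4% of the gene identifiers. Likeness to *Avil* was computed on log2 CPM with a prior count of 2, and promoters are the 250 bases before each RefSeq start in GRCm38.p6. Members, gene lists and tests were chosen with earlier results of these data known.

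Beside the 8 members, genes named are those of the lists that passed the threshold, up to 4 of each list with the highest mean CPM, the 5 genes most like *Avil* with and without centring, and *Ppara* and *Slc2a1*, with *Tsfm*, single low markers such as *Pou2f3*, *Trpm5*, *Chat*, *Sox10*, *Wt1* and *Lrrn4* named after their values were seen. Alternatives set beforehand were DESeq2 1.42.0, limma 3.58.1 voom, DESeq2 size factors, upper-quartile scaling, no filter, a mean of at least 20 TPM, the compared groups alone, a covariate for sex, a block for the replicate number, sums over tumors of one mouse, and leaving out each tumor.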

Additional observations from a re-analysis of the deposited data

How the results depend on the processing

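None of the 7 members other than *Avil* was called in 127 counts under the alternatives, with a lowest adjusted p of 0.115 (DESeq2). Of 443 recomputed values of the fold changes chosen for reporting here, 431 kept their sign. The remaining contrasts of the members, many of them near 0, are not in this count. With sex as a covariate, *Vil1* between KP-PPARαΔ13 and KP had -0.063 and *Avil* between KPG1 and KP 0.51 on the log2 scale. Leaving out one tumor gave -0.20 to 0.51 for the former and -0.46 to 0.19 for the latter, -0.057 to 0.40 for *Gsn* with doxycycline over both genotypes, and -0.014 to 0.11 for *Flii*. The causes were not tested.

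Over the 7 comparisons edgeR called 0 to 8 genes of 16527, DESeq2 39 to 372, the other settings 0 to 12 and leaving out one tumor 0 to 13. With the number as a replicate block, *Avil* had 2.84 in KP and 1.31 in KPG1, no member was called, and 0 to 5 genes were called over the 7 comparisons, with 0 in place of 1 between KP-PPARαΔ13 and KP. Same-numbered tumors of different groups did not deviate together (r of -0.19 to 0.13, median -0.013, 18 pairs). Depth limits *Scin*, with 1 to 3 reads in KPG1.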
